A study of Mus musculus with 6 samples.

Results

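The genes described here are 41 nuclear receptors and the coregulators that work with them, chosen by name from the 23282 genes of the count table. The rule uses no measured value, but the list was drawn up with earlier results of these data known. Nuclear receptors are transcription factors with a DNA-binding domain and a pocket that, in many of them, holds a small lipophilic ligand such as a fatty acid, bile acid, retinoid, oxysterol, thyroid hormone or steroid. Many bind DNA as a pair with a retinoid X receptor, and binding of a ligand swaps corepressors, which close chromatin, for coactivators, which open it. In the liver they set the rates of fatty acid oxidation, lipid synthesis, bile acid handling and drug metabolism. The set holds 6 bile acid and xenobiotic receptors, 5 fatty acid and oxysterol receptors, 6 retinoid receptors, 5 thyroid and steroid hormone receptors, 11 orphan receptors, for which no classical hormone is assigned, and 8 coregulators.

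Primary hepatocytes of C57BL6/N mice were cultured without treatment (control, 3 samples) or with IL-1β recombinant protein (3 samples) for 24 h. The series asks which genes of a hepatocyte respond to this proinflammatory cytokine, and the dose given to the sequenced cultures is not named in the labels. All 3 samples of each group were used, although the deposited design text, which lists 3, counts 2. Nothing in the labels says that the samples of a group came from separate animals, so p-values measure the spread between these samples, which may be technical. RNA was read at the 3′ end of each mRNA (QuantSeq), so a count stands for transcripts of a gene and does not tell its isoforms apart.

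The 6 libraries held 9538741 to 11105408 counts. Levels are given as normalized counts (CPM), scaled by the total of each library over the genes tested, multiplied by its TMM normalization factor. These factors ran from 0.9757 to 1.039, so normalized libraries do not share exactly the same total. In a library, 3 counts, taken as the lower limit of detection for counting error only, correspond to 0.269 to 0.321 CPM. Hepatocyte RNA was present in the cultures: 13 of 14 listed hepatocyte markers were rows of the table, with Alb, Hpx and Apoa1 at the highest levels. The listed markers Arg1, Cps1 and Ass1 were low, with control means of 5.94, 2.65 and 0.717 CPM (named after their values were seen). The summed level of the list was 32030 to 36000 CPM in control and 31890 to 33560 CPM in IL-1β samples. Most of it was Alb, which fell by 0.20 on the log2 scale, and Hpx, which rose by 0.38. Of the 12 hepatocyte markers tested, 2 rose and 8 fell, where 6.97% of all genes tested rose and 6.44% fell. Genes listed as markers of other liver cells were also counted, and some of them moved with the treatment. Whether their RNA came from such cells was not tested. Summed cholangiocyte markers were at 396 to 422 CPM in control and 264 to 267 CPM in IL-1β samples, with 3 of 5 tested lower (Cldn4, Spp1 and Tstd1). Sox9 of the same list was higher in every IL-1β sample without passing, with a log2 fold change of 0.21 (adjusted p = 0.0519). DESeq2, limma at a pseudocount of 1, a minimum of 10 counts in every sample and the replicate block each called 1 marker of this list higher. The defining markers Krt19, Krt7, Epcam and Cftr had 0 to 6 counts in every library. Summed endothelial markers overlapped between the groups, at 88.8 to 96.3 CPM and 85.5 to 89.99 CPM, while the median log2 fold change of the 10 tested was -0.41. Clec4g fell by 2.87 and Kdr fell by 1.49 on the log2 scale, and Lyve1 rose by 0.45. These called markers were named after their values were seen. Of 9 Kupffer cell and macrophage markers tested 0 passed in edgeR's test, with 2 at an unadjusted p below 0.05, and of 3 stellate cell and fibroblast markers 0 passed, with 0 at that level. DESeq2 and limma also called 0 in both lists, whose sums were 244 to 275 against 248 to 278 CPM and 21.9 to 25.9 against 22.8 to 29.1 CPM. Most of these sums was Cd68 and Dcn, with control means of 192 and 18.4 CPM. In every IL-1β sample Cd74 and Marco were higher, by 0.56 and 0.67 on the log2 scale, and Cd5l was lower, by 0.21, without passing. Timd4, Cd163 and Lrat of these lists had 0 to 2 counts in every library, whereas Clec4f had up to 27. Markers other than Cd68, Cd5l and Dcn were named after their values were seen. In such bulk samples, fewer cells of a type and less RNA per cell cannot be told apart, and the part of these cells in the results below was not tested.

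Of the 41 genes, 35 had enough counts to be tested, and 6 of them, 17.1%, passed an adjusted p below 0.05 in edgeR's quasi-likelihood test, where 13.4% of all 11657 genes tested did. The genes Pparg, Esr1, Nr1i2 and Rara fell, and Rora and Nrip1 rose. The 4 lower genes were 11.4% of the 35, against 6.44% of all genes tested, and the 2 higher genes were 5.71%, against 6.97%. The median log2 fold change of the 35 was -0.015, beside -0.002 over all genes tested, and the median size of change, without its sign, was 0.199 beside 0.163. The share of the family that passed was thus near that of the transcriptome, and the values of single genes carry the description. Control and IL-1β samples did not overlap for 12 of the 35 genes, or 34.3%, against 28.2% of all genes tested. Of the 29 genes that did not pass, 21 had a 95% interval that lay within a 1.5-fold change either way, and 25 within a 2-fold change. For these 21 genes a change of more than 1.5-fold lay outside the interval, whereas the others were measured less closely.

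**Figure D1:**
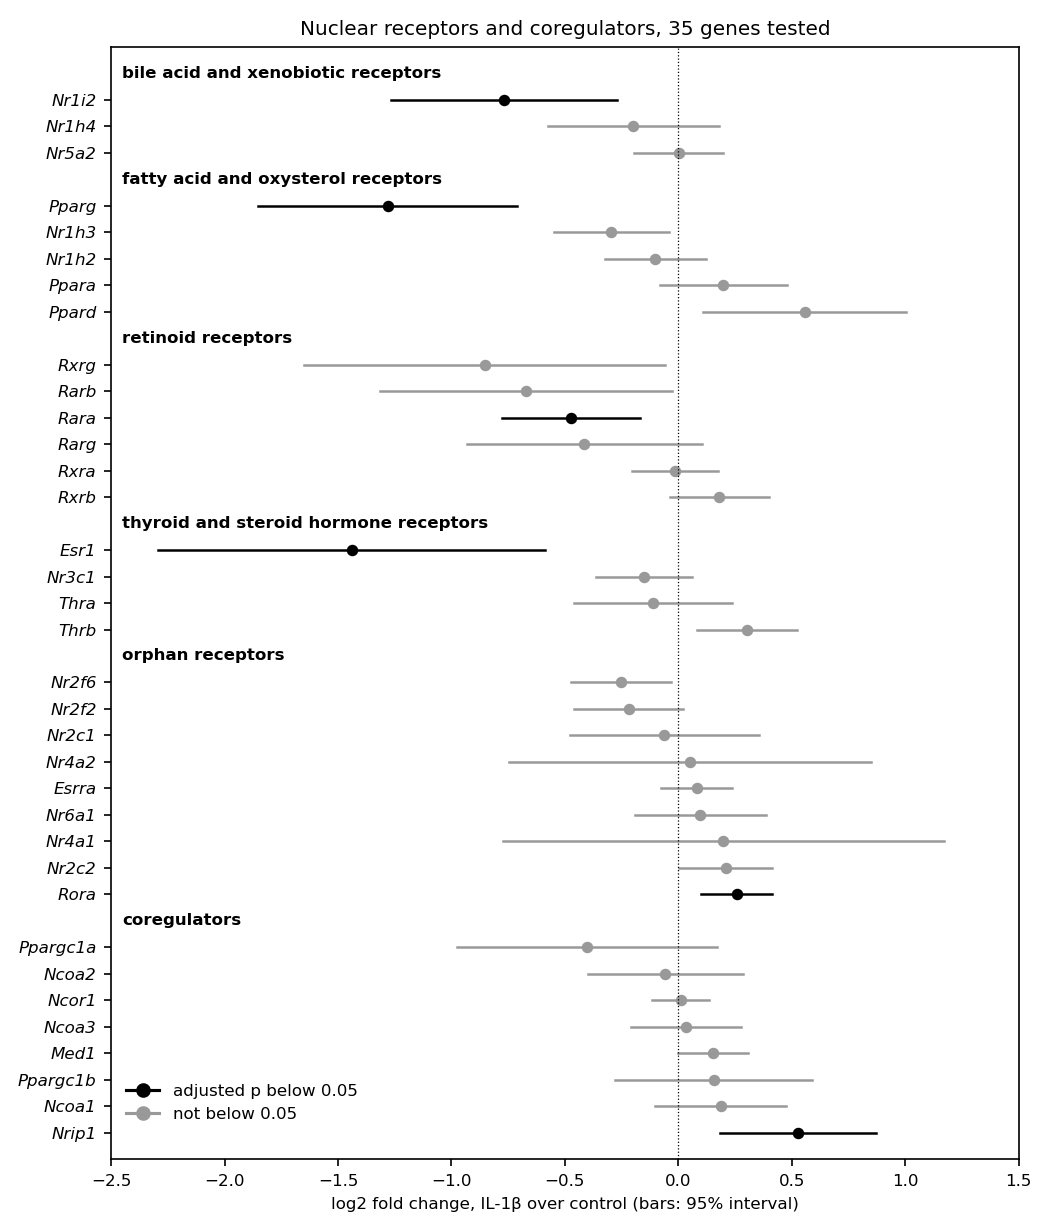
Log2 fold change of the 35 tested genes, IL-1β over control, grouped by role, with points for the estimate, bars for its 95% interval and black for an adjusted p below 0.05 (n = 3 samples per group, edgeR). The estimates run from -1.44 for Esr1 to 0.56 for Ppard, and among the coregulators the interval of Ncor1 is from -0.11 to 0.14.

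**Figure D2:**
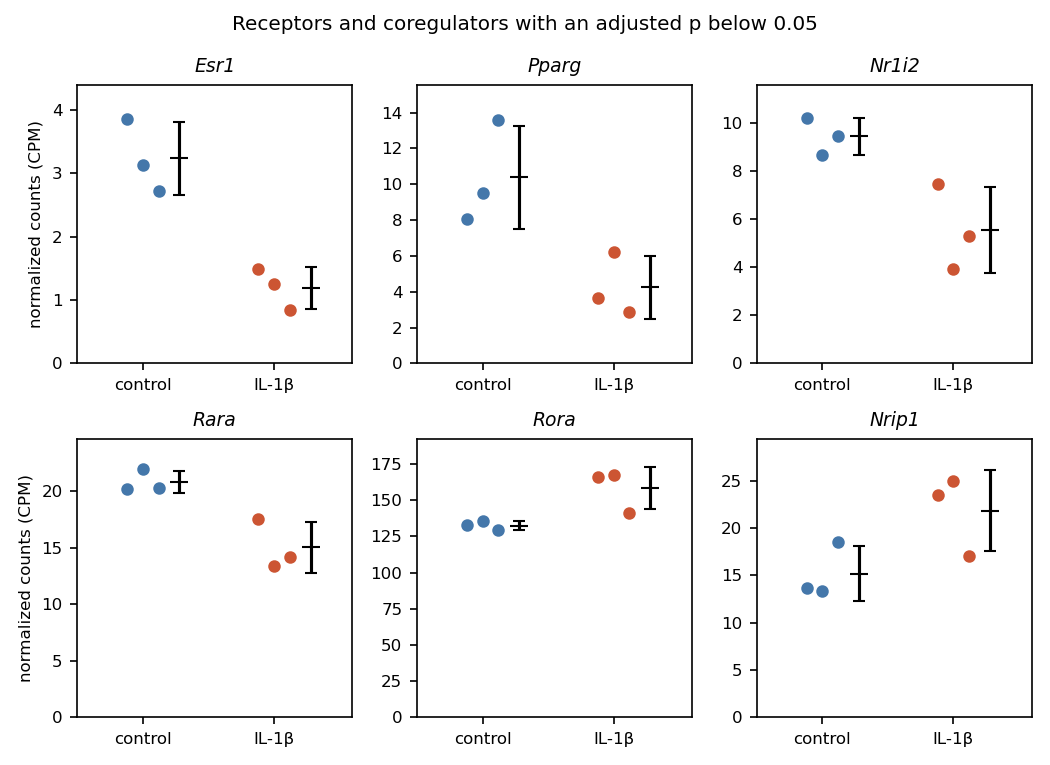
Normalized counts (CPM, vertical axes from 0) of the 6 genes with an adjusted p below 0.05 in each control (blue) and IL-1β (red) sample, with the mean and SD of the 3 samples beside the points. The groups are apart for Esr1, Pparg, Nr1i2, Rara and Rora, and overlap for Nrip1, whose lowest IL-1β sample lies at 17.01 CPM below the highest control at 18.54 CPM.

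Among the bile acid and xenobiotic receptors, only Nr1i2 passed of the 3 tested. Nr1i2 (chr16:38248349-38294824, minus strand) encodes PXR, the pregnane X receptor, which binds drugs and other foreign compounds and drives their metabolism. Its level was 10.2, 8.68 and 9.47 CPM in the control samples and 7.48, 3.94 and 5.30 CPM in the IL-1β samples. Every IL-1β sample lay below every control, with the first IL-1β sample nearest to them. Nr1i2 fell from 9.46 ± 0.779 CPM in control to 5.57 ± 1.79 CPM in IL-1β samples (SD, n = 3). This was a difference of -0.77 on the log2 scale, with a standard error of 0.24 and an edgeR adjusted p of 0.0331, as the mean level fell by 41.3%. Without control 1, control 3, IL-1β 2 or IL-1β 3 its adjusted p was 0.0656, 0.0691, 0.187 and 0.118.

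Nr1h4 encodes FXR, the bile acid receptor that restrains bile acid synthesis. It was measured at 16.2, 10.5 and 14.4 CPM in control and 11.2, 11.1 and 13.3 CPM in IL-1β samples. The groups overlapped, and the log2 fold change was -0.20 with a 95% interval of -0.58 to 0.18 (adjusted p = 0.583). Nr5a2 encodes LRH-1, an activator of bile acid genes that also supports liver identity. It stood at 45.0, 45.5 and 46.0 CPM in control and 44.7, 45.0 and 46.9 CPM in IL-1β samples. This was one of the closest matches between the groups, with a log2 fold change of 0.00 and an interval of -0.19 to 0.20.

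The other receptors of this role were at or close to the lower limit of detection and were not tested. Nr1i3 encodes CAR, the constitutive androstane receptor and partner of PXR in drug metabolism, and it had 0, 3 and 2 counts in control and 6, 3 and 0 counts in IL-1β libraries. Its 3′ end lies within Tomm40l on the opposite strand, which had 665 counts in all. Nr0b2 encodes SHP, a receptor without a DNA-binding domain that FXR induces, with 11, 10 and 1 against 6, 3 and 0 counts. Vdr, the vitamin D receptor, had 5, 0 and 1 against 2, 7 and 1 counts. In all 3 genes the groups overlapped, and a difference was not detectable at this depth.

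Genes listed as targets of CAR and PXR moved in both directions. Of 19 listed, 13 were tested, of which 5 fell and 2 rose (6.44% and 6.97% over all genes tested). Their median log2 fold change was -0.08. Aldh1a1, a retinaldehyde dehydrogenase, fell from 104.9 to 126 CPM in control to 21.4 to 25.01 CPM in IL-1β samples, by 2.34 on the log2 scale (adjusted p = 5.12e-15). Gstm3, a glutathione transferase, fell by 1.87, and the drug-metabolizing enzymes Cyp3a13, Cyp3a11 and Cyp2c29 fell by 0.48, 0.56 and 0.47. Cyp3a11, a classical PXR target, stood at 128, 106 and 123 CPM in control and 75.8, 83.7 and 82.6 CPM in IL-1β samples, with no overlap. The members that rose were Abcc3, an export pump of conjugates, by 0.65, and Alas1, the first enzyme of haem synthesis, by 0.45. Cyp2b10, the classical CAR target, had 0 to 5 counts in every library and was not tested. Abcc3, Cyp2c29, Alas1 and Cyp2b10 were named after their values were seen.

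Of 15 listed FXR and bile acid genes, 10 were tested, of which 2 rose and 2 fell (6.97% and 6.44% over all genes tested). Their median log2 fold change was -0.28. The groups did not overlap for 7 of the 10, as for 28.2% of all genes tested. Cyp27a1, Baat and Slc27a5 were lower in every IL-1β sample without passing, by 0.24, 1.11 and 0.21 (named after their values were seen). Their edgeR adjusted p was 0.0526, 0.0816 and 0.134. Abcb4, the phospholipid exporter of bile, fell from 154, 142 and 126 CPM in control to 64.5, 56.6 and 71.2 CPM in IL-1β samples, by 1.13 on the log2 scale (adjusted p = 8.87e-10). Fgfr4, the receptor through which gut FGF signals to bile acid synthesis, fell by 1.93. It was at 4.74 to 5.92 CPM in control and 1.12 to 1.54 CPM in IL-1β samples, where it had 12 to 16 counts. Cyp7b1, an enzyme of the alternative bile acid pathway, rose from 31.8, 45.0 and 38.0 CPM to 69.2, 66.5 and 70.5 CPM, by 0.84, and Atp8b1, a flippase of the canalicular membrane, rose by 0.42. Atp8b1 had an adjusted p of 0.0255, which became 0.086, 0.114, 0.149 and 0.0745 without control 2, control 3, IL-1β 1 or IL-1β 2. The rate-limiting enzyme gene Cyp7a1 had 0 to 3 counts in every library (named after its value was seen).

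Among the fatty acid and oxysterol receptors, all 5 were tested and only Pparg passed. Pparg (chr6:115360951-115490401, plus strand) encodes PPARγ, the fat-cell receptor that drives lipid storage and that is also present in macrophages, endothelial and stellate cells. It had 86, 106 and 135 counts in control and 34, 65 and 31 counts in IL-1β libraries, or 8.08, 9.49 and 13.6 CPM against 3.64, 6.24 and 2.88 CPM. Every IL-1β sample was below every control sample. Pparg fell from 10.4 ± 2.87 CPM in control to 4.25 ± 1.76 CPM in IL-1β samples (SD, n = 3). This was a difference of -1.28 on the log2 scale, with a standard error of 0.28 and an edgeR adjusted p of 0.00176, as the mean level fell by 58.9%. Of the 6 genes that passed, Pparg kept an adjusted p below 0.05 with each sample left out in turn, from 9.65e-05 to 0.0274, and the other 5 lost it at least once. Of the 10 endothelial markers tested, 2 fell and 1 rose beside it (6.44% and 6.97% over all genes tested). The median log2 fold change of these 10 was -0.41. In 6 of them the groups did not overlap, in either direction, as for 28.2% of all genes tested. Their summed level, with Eng and Lyve1 as its largest parts, overlapped between the groups, and of the 9 macrophage markers 0 passed. The part of these cells in the change was not tested.

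The RefSeq promoter table (GRCm38.p6) holds 3 windows of Pparg, each from 250 bases before to 50 bases after an annotated start, and 2 of these hold AGGTCA, the half-site that most nuclear receptors read. They are shown because Pparg, which passed with each sample left out, holds this half-site close to a start. Capitals mark the half-site, which begins 28 bases before the start in the first window and 9 bases before it in the second.
Pparg, chr6:115360894-115361193, plus strand: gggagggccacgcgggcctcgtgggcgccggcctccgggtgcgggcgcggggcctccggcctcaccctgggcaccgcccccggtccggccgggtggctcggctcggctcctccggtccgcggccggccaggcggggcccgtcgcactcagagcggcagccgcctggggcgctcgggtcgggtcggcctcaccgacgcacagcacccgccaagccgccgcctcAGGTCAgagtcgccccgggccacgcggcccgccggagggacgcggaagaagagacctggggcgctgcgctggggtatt
Pparg, chr6:115362099-115362398, plus strand: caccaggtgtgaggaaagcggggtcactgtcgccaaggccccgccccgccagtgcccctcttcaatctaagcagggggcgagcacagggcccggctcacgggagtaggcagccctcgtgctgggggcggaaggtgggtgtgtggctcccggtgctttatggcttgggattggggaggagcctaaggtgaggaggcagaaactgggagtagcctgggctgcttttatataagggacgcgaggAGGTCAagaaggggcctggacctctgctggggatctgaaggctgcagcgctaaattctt
AGGTCA on either strand occurred in 16.3% of all 32851 promoter windows of the table and in 10 of the 53 windows of the genes described here, or 18.9%, which belong to 9 genes. A match is a description of letters and not of binding, and the 3′ counts do not tell which start was used.

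Ppard encodes PPARδ, which is found in most tissues and responds to fatty acids. It stood at 9.96, 5.55 and 7.05 CPM in control and 11.6, 10.6 and 11.1 CPM in IL-1β samples. The groups did not overlap, with control 1 close to the IL-1β samples, and the log2 fold change of 0.56 (interval 0.11 to 1.00) did not pass, at an adjusted p of 0.0992. Without control 1 it was 0.81 with an adjusted p of 0.0104. Ppara encodes PPARα, the fasting receptor that turns on fatty acid oxidation in hepatocytes, and was measured at 19.3, 22.2 and 23.3 CPM against 28.6, 23.6 and 22.1 CPM. These groups overlapped, and its log2 fold change was 0.20 (interval -0.08 to 0.48, adjusted p = 0.417).

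Nr1h3 encodes LXRα, an oxysterol receptor that drives cholesterol efflux and lipid synthesis. Its level was 29.97, 27.8 and 34.8 CPM in control and 26.6, 23.2 and 25.6 CPM in IL-1β samples. The IL-1β samples lay below the controls without overlap, yet the log2 fold change of -0.30 (interval -0.55 to -0.04) had an adjusted p of 0.126. The sister gene Nr1h2, which encodes LXRβ, overlapped at 40.4 to 46.4 CPM and 36.02 to 43.97 CPM, with a log2 fold change of -0.10 (interval -0.32 to 0.12).

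The genes listed as PPARα targets were lower more often than higher, with 6 lower and 1 higher of 20 tested (6.44% and 6.97% over all genes tested) and a median log2 fold change of -0.38, beside -0.002 over all genes. For 13 of the 20 the groups did not overlap, as for 28.2% of all genes tested. The thiolases Acaa1b and Acaa2, of peroxisome and mitochondrion, fell by 1.26 and 0.66. Cpt1a, which commits fatty acids to mitochondrial oxidation, fell from 55.4, 47.2 and 45.1 CPM in control to 27.6, 27.9 and 30.03 CPM in IL-1β samples, by 0.79 on the log2 scale (adjusted p = 7.39e-06). Plin2, a lipid droplet coat protein, fell by 0.46, and the oxidation enzyme Acadl fell by 0.22. Angptl4, a secreted inhibitor of lipoprotein lipase, rose from 41.7, 42.2 and 49.4 CPM to 54.7, 65.4 and 66.4 CPM, by 0.49. Acadl and Angptl4 were named after their values were seen. In the same samples the interval of Ppara, the gene of the receptor, ran from -0.08 to 0.48.

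Of 9 tested LXR targets, 3 rose and 1 fell (6.97% and 6.44% over all genes tested), with a median of 0.18. Abca1, the cholesterol efflux pump, rose from 37.9, 36.6 and 40.7 CPM in control to 79.5, 78.0 and 74.3 CPM in IL-1β samples, by 1.01 on the log2 scale (adjusted p = 6.57e-09). Scd1, the stearoyl-CoA desaturase, fell from 539, 494 and 409 CPM to 229, 213 and 237 CPM, and so fell by 1.08 on the log2 scale. Lpl, lipoprotein lipase, rose by 0.64 and Fasn, fatty acid synthase, by 0.26, with adjusted p of 0.0245 and 0.0468. Lpl had an adjusted p of 0.0853, 0.165 and 0.128 without control 3, IL-1β 1 or IL-1β 2, and Fasn had 0.143, 0.0853, 0.167 and 0.198 without control 2, control 3, IL-1β 1 or IL-1β 2. DESeq2 gave Fasn an adjusted p of 0.0502, upper-quartile scaling 0.0803, total-count scaling 0.141 and limma with a pseudocount of 0.1 gave 0.0503.

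All 6 retinoid receptor genes were tested, and their median log2 fold change was -0.44, the lowest of the 6 roles. The retinoic acid receptors (RAR) bind retinoic acid and pair with the retinoid X receptors (RXR), which also pair with PPAR, LXR, FXR, PXR and the thyroid hormone receptors. Rara (chr11:98937696-98974942, plus strand), the gene of RARα, was the member that passed. It stood at 20.2, 21.9 and 20.2 CPM in control and 17.5, 13.4 and 14.1 CPM in IL-1β samples. The controls lay close together and above every IL-1β sample. Rara fell from 20.8 ± 0.985 CPM in control to 15.01 ± 2.22 CPM in IL-1β samples (SD, n = 3). This was a difference of -0.47 on the log2 scale, with a standard error of 0.15 and an edgeR adjusted p of 0.0313, as the mean level fell by 28.02%. Without control 2, control 3, IL-1β 2 or IL-1β 3 its adjusted p was 0.113, 0.0538, 0.155 and 0.128.

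Rarb, the gene of RARβ, had 62, 43 and 47 counts in control and 25, 35 and 32 counts in IL-1β libraries, or 5.82, 3.85 and 4.74 CPM against 2.67, 3.36 and 2.98 CPM. Its groups did not overlap, but the log2 fold change of -0.67 (interval -1.32 to -0.03) did not pass, at an adjusted p of 0.187. The last 1000 bases of Rarb lie within Top2b on the opposite strand, and the strand setting of the counting is not given in the sources used here. Top2b, a DNA topoisomerase, had 6536 counts over the 6 libraries and a log2 fold change of 0.13 (adjusted p = 0.395). Rarg, the gene of RARγ, was at 9.21, 9.04 and 6.05 CPM against 7.48, 4.32 and 6.51 CPM, with overlap and a log2 fold change of -0.41 (interval -0.93 to 0.10).

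Rarb is the textbook case of a receptor gene that its own ligand induces, through a direct repeat of the half-site with 5 bases between the copies. Its promoter window and that of Rara are shown because the levels of both genes lay lower in every IL-1β sample. Capitals mark AGGTCA in Rara, 33 bases after that annotated start, and in Rarb the direct repeat of 2 half-sites (each AGGTCA, with G also allowed in place of its opening A and T in place of the G before TCA) with 5 bases between them, which begins 53 bases before the start.
Rara, chr11:98964622-98964921, plus strand: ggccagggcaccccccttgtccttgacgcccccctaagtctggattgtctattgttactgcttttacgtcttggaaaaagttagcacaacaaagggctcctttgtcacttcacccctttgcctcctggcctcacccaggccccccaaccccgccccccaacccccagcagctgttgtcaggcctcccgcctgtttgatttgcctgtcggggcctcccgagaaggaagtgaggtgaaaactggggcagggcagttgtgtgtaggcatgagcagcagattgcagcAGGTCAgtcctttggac
Rarb, chr14:16575427-16575726, minus strand: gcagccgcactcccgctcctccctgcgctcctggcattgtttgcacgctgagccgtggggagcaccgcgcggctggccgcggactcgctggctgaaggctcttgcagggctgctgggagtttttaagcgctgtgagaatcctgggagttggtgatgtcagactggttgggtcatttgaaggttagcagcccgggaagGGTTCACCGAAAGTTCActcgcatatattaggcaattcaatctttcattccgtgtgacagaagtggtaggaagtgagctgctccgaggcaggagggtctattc
On either strand, a direct repeat with this spacing occurred in 0.0974% of all 32851 windows, and one with a spacing of 1 to 5 bases in 0.7%. Of the 53 windows described here, the Rarb window was the only one with either. The Rara window is 1 of 4 in the table for this gene.

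None of the 3 RXR genes passed, with 1 at an unadjusted p below 0.05 and DESeq2 and limma also calling none. Rxra, the gene of RXRα, stood at 62.8, 71.8 and 63.1 CPM in control and 59.6, 69.6 and 66.5 CPM in IL-1β samples, with a log2 fold change of -0.01 (interval -0.20 to 0.18). Its groups overlapped throughout, and a change of more than 1.5-fold lay outside the interval. Rxrb, the gene of RXRβ, was at 38.5, 36.2 and 34.8 CPM against 45.4, 39.7 and 39.0 CPM, higher in every IL-1β sample, with a log2 fold change of 0.18 (interval -0.04 to 0.40, adjusted p = 0.328). Its 2 promoter windows were the only ones of the 53 to hold GGGA and TTCC with 2 bases between them, letters of the kind read by the transcription factor NF-κB. On either strand they occurred in 1.47% of all windows. Such a match describes letters and not binding, and a part of NF-κB in the level of Rxrb was not tested. Rxrg, the gene of RXRγ, had 34, 46 and 26 counts in control and 14, 26 and 16 counts in IL-1β libraries. Every IL-1β sample, at 1.49 to 2.50 CPM, lay below every control, at 2.62 to 4.12 CPM, and the log2 fold change of -0.85 (interval -1.65 to -0.06) did not pass, at an adjusted p of 0.170.

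Of 8 listed retinoic acid targets, 5 were tested, of which 1 fell and 1 rose (6.44% and 6.97% over all genes tested). Cyp26a1, the enzyme that breaks down retinoic acid and the most responsive of its targets in liver, fell from 5.82, 4.66 and 3.53 CPM in control to 1.07, 1.54 and 0.837 CPM in IL-1β samples, by 2.02 on the log2 scale (adjusted p = 5.87e-04). Dhrs3, which turns retinaldehyde back to retinol, rose from 11.9, 13.1 and 7.26 CPM to 17.96, 16.7 and 27.3 CPM, by 0.94, with an adjusted p of 0.00183. Without IL-1β 3 Dhrs3 had an adjusted p of 0.0537. Cyp26b1, which also breaks down retinoic acid, was lower in every IL-1β sample without passing, with a log2 fold change of -0.33. Crabp2, a retinoic acid carrier named after its value was seen, was at 0 counts in every library.

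Of the thyroid and steroid hormone receptors, 4 of 5 were tested and Esr1 passed. Esr1 (chr10:4611989-5005633, plus strand) encodes the estrogen receptor ERα, the main estrogen receptor of liver. It had 41, 35 and 27 counts in control and 14, 13 and 9 counts in IL-1β libraries, or 3.85, 3.13 and 2.72 CPM against 1.497, 1.25 and 0.837 CPM. The groups lay clearly apart, although the counts were few. Esr1 fell from 3.24 ± 0.573 CPM in control to 1.19 ± 0.333 CPM in IL-1β samples (SD, n = 3). This was a difference of -1.44 on the log2 scale, with a standard error of 0.41 and an edgeR adjusted p of 0.0191, as the mean level fell by 63.2%. Its 95% interval ran from -79.6% to -33.4%. Without control 1, control 2, IL-1β 2 or IL-1β 3 its adjusted p was 0.0766, 0.0534, 0.0683 and 0.109.

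Thrb encodes TRβ, the main thyroid hormone receptor of liver. It stood at 29.9, 34.6 and 31.2 CPM in control and 38.1, 40.5 and 39.3 CPM in IL-1β samples. Every IL-1β sample was above every control, and the log2 fold change of 0.30 (interval 0.08 to 0.52) just missed the threshold, at an adjusted p of 0.0663. Its paralog Thra overlapped at 13.2 to 15.8 CPM against 11.9 to 15.6 CPM, with a log2 fold change of -0.11 (interval -0.46 to 0.24). Of the 5 tested thyroid hormone targets 0 passed in edgeR's test, as in DESeq2 and limma, and 0 had an unadjusted p below 0.05. Their log2 fold changes ran from -0.26 for Thrsp to 0.35 for Dio1, with overlap in each.

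Nr3c1 encodes the glucocorticoid receptor. It was measured at 62.8, 63.4 and 61.3 CPM in control and 61.5, 61.4 and 46.2 CPM in IL-1β samples. The first 2 IL-1β samples lay within the range of the controls and the third lay below, and the log2 fold change was -0.15 (interval -0.36 to 0.06, adjusted p = 0.420). Of 10 tested glucocorticoid targets, 2 fell and 1 rose (6.44% and 6.97% over all genes tested), with a median of 0.04. Igfbp1, which binds insulin-like growth factors, fell from 274, 278 and 220.1 CPM to 56.9, 61.7 and 65.3 CPM, by 2.07 on the log2 scale (adjusted p = 5.05e-15), and Tat, tyrosine aminotransferase, fell by 1.71. Mt2, a metallothionein, rose by 0.48. Tat lost its call without IL-1β 1 (adjusted p = 0.0662). The textbook targets Fkbp5 and Tsc22d3 had log2 fold changes of 0.02 and 0.22 without passing (named after their values were seen). The mineralocorticoid receptor gene Nr3c2 had 5 to 15 counts in control and 6 to 14 in IL-1β libraries and was not tested.

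**Figure D3:**
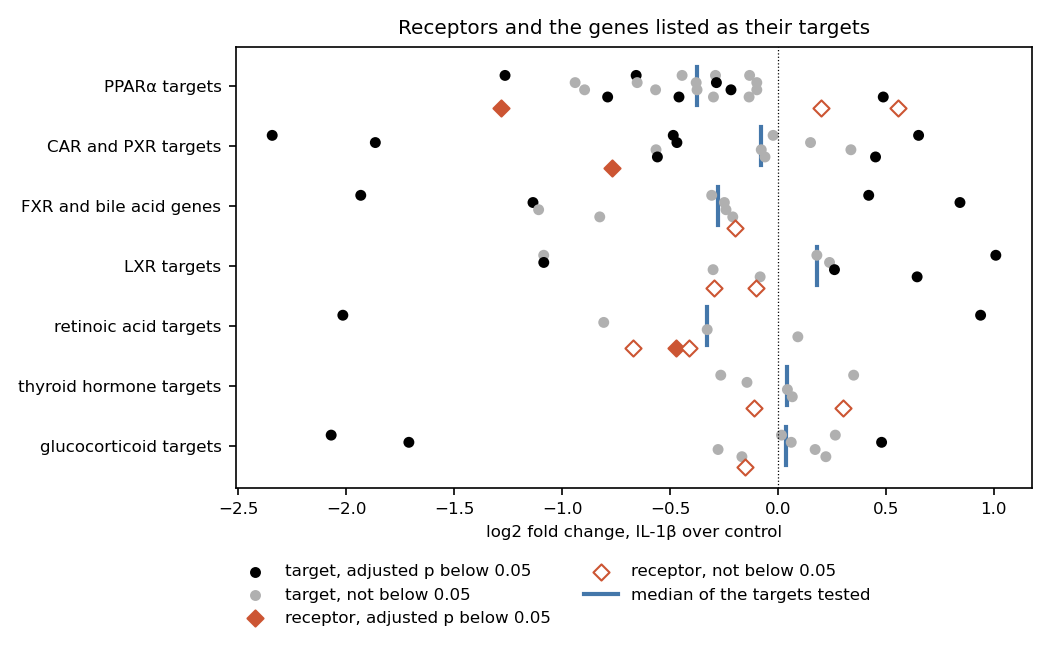
Log2 fold change, IL-1β over control, of the tested genes listed as targets of each receptor class (circles, black for an adjusted p below 0.05), with the median of each list (blue bar) and the receptor genes themselves below it (diamonds, filled for an adjusted p below 0.05). The diamonds are Ppara, Ppard and Pparg, Nr1i2, Nr1h4, Nr1h2 and Nr1h3, Rara, Rarb and Rarg, Thra and Thrb, and Nr3c1, from top to bottom, and the list medians run from -0.38 for PPARα targets to 0.18 for LXR targets.

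Among the 11 orphan receptors, 9 were tested and Rora passed. Rora (chr9:68653786-69388246, plus strand) encodes RORα, which activates clock and lipid genes. It stood at 133, 135 and 129 CPM in control and 166, 167 and 141 CPM in IL-1β samples. The controls lay close together, and the third IL-1β sample was the nearest to them. Rora rose from 132 ± 3.08 CPM in control to 158 ± 14.6 CPM in IL-1β samples (SD, n = 3). This was a difference of 0.26 on the log2 scale, with a standard error of 0.077 and an edgeR adjusted p of 0.0246, or 19.5% more. Its adjusted p was 0.0867, 0.127 and 0.139 without control 3, IL-1β 1 or IL-1β 2 and 0.086 with total-count scaling.

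The other orphan receptors showed smaller or less certain differences. Nr2f6 (EAR2) and Nr2f2 (COUP-TFII, which is also a venous endothelial factor) were at 46.0 to 55.1 CPM and 38.4 to 47.2 CPM in control and at 38.4 to 47.3 CPM and 33.4 to 43.9 CPM in IL-1β samples, with overlap. Their log2 fold changes were -0.25 (interval -0.47 to -0.03, adjusted p = 0.138) and -0.22 (interval -0.46 to 0.02, adjusted p = 0.270). Esrra, the gene of ERRα, which works with PGC-1α on mitochondrial genes, overlapped at 131 to 134 CPM against 129.9 to 154 CPM, with a log2 fold change of 0.08 (interval -0.08 to 0.24). Nr2c2 (TR4) stood at 65.0, 73.8 and 65.0 CPM against 91.3, 68.4 and 76.0 CPM, a log2 fold change of 0.21 (adjusted p = 0.202), and 43.2% of the 75-nt windows in the last 500 nt of its transcript also occur in the annotated transcript Gm42933. The 3′ ends of Nr2c2, Nr2f6 and Esrra overlap Mrps25, Ocel1 and Trmt112 on the opposite strand, with log2 fold changes of 0.01, -0.28 and 0.08 and adjusted p of 0.963, 0.566 and 0.604. For the TR4 relative Nr2c1 (TR2) the log2 fold change was -0.06 and for Nr6a1 (GCNF) 0.10, both with overlap.

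The NR4A receptors are immediate early genes, which respond within the first hours of a stimulus. Nr4a1 had 14, 32 and 23 counts in control and 33, 34 and 8 counts in IL-1β libraries, and Nr4a2 had 23, 31 and 46 against 48, 24 and 27. The counts scattered as widely within a group as between the groups, and the intervals of the log2 fold changes were wide, from -0.77 to 1.17 for Nr4a1 and from -0.75 to 0.85 for Nr4a2. Nr4a3 had 0 counts in the control libraries and 0, 0 and 2 in the IL-1β libraries, and Nr2f1 (COUP-TFI) had 5, 12 and 5 against 15, 3 and 9. A difference in these receptors at 24 h was not detectable at this depth.

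**Figure D4:**
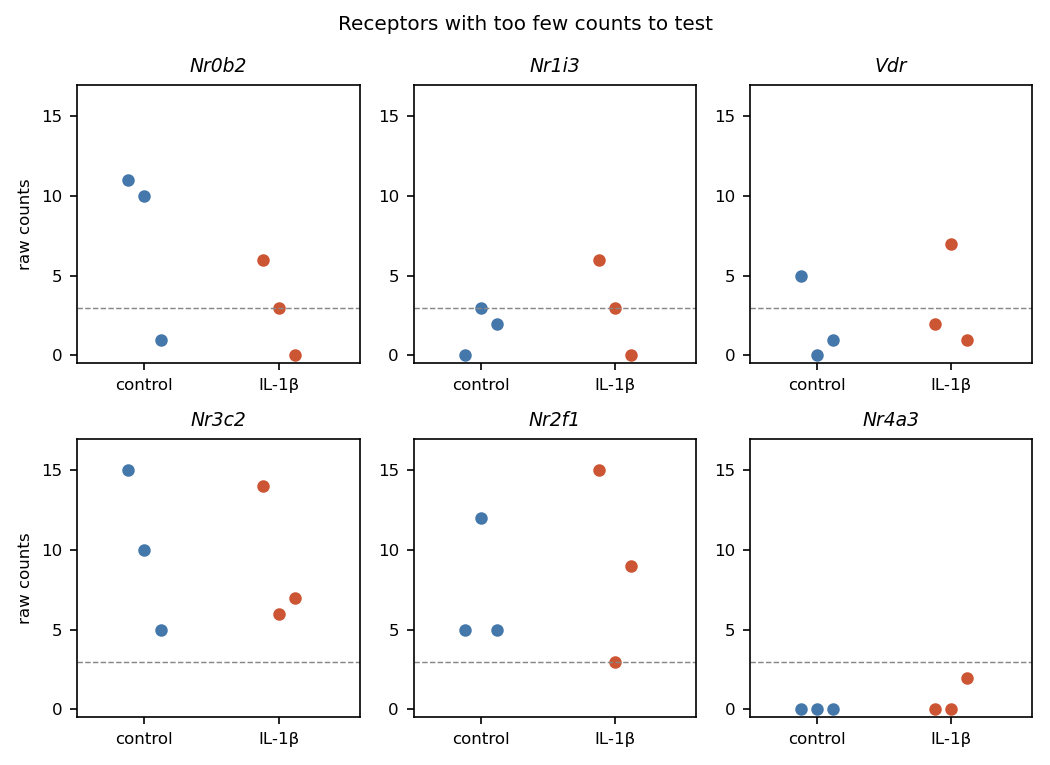
Raw counts in each control (blue) and IL-1β (red) library of the 6 receptors with too few counts to be tested, with a dashed line at 3 counts, the lower limit of detection used here. Values run from 0 to 15 counts, the groups overlap or meet in every panel, and Nr4a3 is at 0 in 5 of the 6 libraries.

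All 8 coregulators were tested, and Nrip1 passed. Nrip1 (chr16:76290862-76373049, minus strand) encodes RIP140, a corepressor of liganded receptors that is itself induced by several of them. It was measured at 13.6, 13.3 and 18.5 CPM in control and 23.5, 24.98 and 17.01 CPM in IL-1β samples. The groups overlapped, since the third IL-1β sample lay below the third control. Nrip1 rose from 15.2 ± 2.92 CPM in control to 21.8 ± 4.24 CPM in IL-1β samples (SD, n = 3). This was a difference of 0.53 on the log2 scale, with a standard error of 0.17 and an edgeR adjusted p of 0.0339, or 44.1% more. Its adjusted p was 0.0697, 0.141, 0.140 and 0.198 without control 1, control 2, IL-1β 1 or IL-1β 2, and 0.0565 with total-count scaling.

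The general coregulators did not pass. Ncor1, the corepressor that joins receptors to histone deacetylase HDAC3, stood at 508, 506 and 502 CPM in control and 492, 506 and 529 CPM in IL-1β samples, a log2 fold change of 0.01 with the narrowest interval of the 35 genes, -0.11 to 0.14. The last 1000 bases of Ncor1 lie within Ttc19 on the opposite strand, which had 1936 counts in all and a log2 fold change of 0.02. The p160 coactivators Ncoa1, Ncoa2 and Ncoa3, which bring histone acetyltransferases to liganded receptors, had log2 fold changes of 0.19 (interval -0.10 to 0.48), -0.06 (-0.40 to 0.29) and 0.04 (-0.21 to 0.28), each with overlap. The 3′ end of Ncoa3 overlaps Sulf2 on the opposite strand by 154 bases, a gene with a log2 fold change of -0.31 (adjusted p = 0.456). Med1, the Mediator subunit that receptors touch, was at 116, 109 and 115 CPM in control and 120.5, 124 and 134 CPM in IL-1β samples. Med1 was higher in every IL-1β sample without overlap, and its log2 fold change of 0.15 (interval -0.00 to 0.31) had an adjusted p of 0.222.

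The PGC-1 coactivators drive mitochondrial and gluconeogenic genes together with PPARα and ERRα. Ppargc1a, the gene of PGC-1α, stood at 7.61, 5.64 and 5.64 CPM in control and 6.52, 3.75 and 4.09 CPM in IL-1β samples. In each group the first sample was the highest, the groups overlapped, and the log2 fold change of -0.40 had an interval from -0.98 to 0.17 (adjusted p = 0.423). Ppargc1b, the gene of PGC-1β, was at 11.6, 11.6 and 7.56 CPM against 12.6, 8.45 and 13.3 CPM, with a log2 fold change of 0.16 (interval -0.28 to 0.59).

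Among nuclear receptors outside the set, Hnf4a, a master factor of hepatocyte identity, fell from 84.7, 91.2 and 87.2 CPM in control to 41.7, 43.8 and 42.6 CPM in IL-1β samples, by 1.04 on the log2 scale (adjusted p = 1.62e-09). The log2 fold change of the haem receptor gene Nr1d2 was -0.11, with an adjusted p of 0.502. Among further coregulators, the acetyltransferase genes Crebbp and Ep300 had log2 fold changes of 0.00 and -0.02 (named after their values were seen).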

How the data were processed

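Raw read counts per gene were deposited by the authors for 6 libraries of QuantSeq 3′ mRNA-Seq (single-end, 75 nt). The submitters' processing notes name Bowtie2, edgeR and the builds mm10 and GRCm38, while the counting tool and its strand setting are not given in the sources used here. The authors' own log2 values, group means, fold changes and p-values in the same table were not used. Groups came from the sample labels, and 0 per-sample columns lacked a sample.

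The analysis of counts used edgeR 4.0.16 (R 4.3.3), with filterByExpr (minimum count 10), TMM normalization and the quasi-likelihood test of IL-1β against control on the whole table, with Benjamini-Hochberg adjustment over 11657 genes and a threshold of 0.05. Standard errors are the log2 fold change divided by the square root of F, and 95% intervals use the moderated degrees of freedom. The test was tried on simulated counts before use. With 3 against 3 samples an exact two-sided permutation test cannot go below 0.1, so it is not printed per gene. Alternatives were DESeq2 1.42.0, limma 3.58.1 on log2(CPM + 1) or log2(CPM + 0.1), Student's test, other scalings and filters, a replicate block, a fold limit of 1.5 and each sample left out. Deviations of samples with the same replicate number correlated by 0.08, 0.03 and 0.00 over the genes tested. The main test did not pair samples, and these correlations, which counting error lowers, cannot exclude a pairing.

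The members, target lists and marker lists were chosen with earlier results of these data known. All 41 members were described, with at most 4 genes of each target list by smallest adjusted p, other names being marked. A few genes picked in this way are left out of the text. Gene overlaps at 3′ ends were read from GENCODE vM21 and promoter windows from RefSeq (GRCm38.p6, 36 of 41 members matched), with Python 3.11.15.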

Additional observations from a re-analysis of the deposited data

How the results depend on the processing

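The count of 6 members called (4 lower, 2 higher) was also 6, and the same 6 genes, with DESeq2, upper-quartile scaling, no filter, limma with either pseudocount and the replicate block. It was 5 with at least 10 counts in every sample, which left Esr1 untested, 4 with total-count scaling (0 higher), 3 with a fold change over 1.5 as well (0 higher) and 0 with Student's test, where 8 of the 35 had an unadjusted p below 0.05. The cause of the last was not tested. With each sample left out the members called numbered 1 to 4, of which 0 to 2 were higher and 1 to 4 lower. The fewest were left without IL-1β replicate 2, where Pparg alone was called, and Ppard was gained without control replicate 1. Student's test gave Rara, Pparg, Rora, Nr1i2, Esr1 and Nrip1 adjusted p of 0.15, 0.181, 0.207, 0.217, 0.0759 and 0.322. The replicate block changed no call of a member.

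The signs that turned were all of genes that did not pass. With upper-quartile and total-count scaling, Nr5a2 was at -0.0276 and -0.0527 and Ncor1 at -0.0176 and -0.0427. With total-count scaling, Nr4a2 was at -0.0068 and Ncoa3 at -0.0183. With a sample left out, the log2 fold change was -0.0592 to 0.0556 for Rxra, -0.126 to 0.0648 for Nr2c1, -0.1112 to 0.6476 for Nr4a1, -0.3905 to 0.4099 for Nr4a2 and -0.018 to 0.0211 for Nr5a2. It was -0.2265 to 0.0418 for Ncoa2, -0.0099 to 0.1123 for Ncoa3, -0.0142 to 0.0423 for Ncor1, -0.021 to 0.3379 for Ppargc1b and -0.0224 to 0.1578 for Klf9. Over the 35 members, 299 of 313 values with all samples and 172 of 210 with a sample left out kept their direction and side of the threshold. Counts of target genes called moved by over 1.5 times in these settings. Among FXR and bile acid genes, 4 fell instead of 2 with total-count scaling (1 rose) or limma with a pseudocount of 1. Student's test, which called 547 of all 11657 genes, called 0 higher targets of PPARα, CAR and PXR, FXR and retinoic acid, 1 higher and 1 lower target of LXR and of glucocorticoids, and 0 lower targets of retinoic acid. A fold change over 1.5 as well left 3 lower and 0 higher PPARα targets, 2 lower and 1 higher CAR and PXR targets, 1 higher FXR gene and 0 higher glucocorticoid targets. With at least 10 counts in every sample, 0 retinoic acid targets and 1 glucocorticoid target fell. With a sample left out, 1 to 4 LXR targets and 1 to 2 FXR genes rose, 0 to 1 retinoic acid targets rose and 1 to 2 glucocorticoid targets fell. Without control replicate 1, 1 macrophage marker rose. The 6 untested receptors had too few counts for a test at this depth.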
